A study of Cricetiscus sungorus with 24 samples.

Results

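The sodium pump, the epithelial sodium channel and their regulators were followed in the kidney of the Djungarian (Siberian) hamster through 9 genes: the pump subunits Atp1b1 and Atp1b3, the pump-associated protein Fxyd2, the channel subunits Scnn1a, Scnn1b and Scnn1g, the kinases Sgk1 and Wnk1, and the ubiquitin ligase Nedd4l. They were found by gene symbol, and each was represented by its listed transcript with the highest total count. Of the 9681 genes listed in experiment 1, 7 were members, and Scnn1a and Scnn1b were not listed. All 9 were among the 15842 genes of experiment 2.

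Experiment 1 held 12 adult males, all housed at first in long photoperiod: 4 that remained there at 16 h of light per day (LP), 4 exposed to short photoperiod with 8 h of light for 12 weeks (SP12wk) and 4 exposed to it for 28 weeks (SP28wk). It asked how the kidney follows a simulated seasonal cycle, in which hamsters respond to short days and later revert spontaneously. Experiment 2 held 12 adult females that had all spent 8 weeks in short photoperiod and then received intraperitoneal injections on 3 days, 6 with a vehicle of dimethyl sulfoxide and saline (SAL) and 6 with 18 µg ovine prolactin per injection in that vehicle (PRL). It asked whether prolactin, a hormone that is low in short days, acts on the kidney. Each library came from part of a kidney of 1 animal, the regions of the kidney were not separated, and each experiment was read on 1 nanopore flow cell. Sex and flow cell therefore differ together between the experiments, and levels were compared only within an experiment.

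The Na,K-ATPase moves sodium out of the cell across the basolateral membrane of the tubule and so drives sodium reabsorption along the whole nephron. Its beta subunit brings the pump to the membrane, and in kidney it is joined by the small FXYD2 protein, which lowers its affinity for sodium. In the aldosterone-sensitive distal nephron sodium enters from the urine through the epithelial sodium channel (ENaC), a complex of alpha, beta and gamma subunits encoded by Scnn1a, Scnn1b and Scnn1g. NEDD4L ubiquitinates ENaC and removes it from the membrane, the corticosteroid-induced kinase SGK1 phosphorylates NEDD4L and so prevents this, and WNK1 acts through the kinases SPAK and OSR1 on the sodium chloride cotransporters.

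Depth set the limits. With 1 transcript per gene, the libraries held 15687 to 57585 counts in experiment 1 and 174053 to 756523 in experiment 2. One count was thus worth 17.4 to 63.8 CPM, counts scaled to the summed counts of the library, in experiment 1 and 1.32 to 5.75 CPM in experiment 2. For a gene without a count, the limit of 3 counts corresponds to 52.1 to 191 CPM in single libraries of experiment 1 and to 3.97 to 17.2 CPM in those of experiment 2, for counting error alone. In experiment 1, LP libraries 2 and 3 stood apart: their totals over all transcripts were 3.31 and 2.90 times those with 1 transcript per gene, against 2.15 to 2.45 in the other 10 libraries, and their TMM scaling factors were 1.41 and 1.25 against 0.770 to 1.14. Of 8 proximal tubule markers 7 had counts in both experiments, Cubn being the exception. The collecting duct marker Aqp2 was not listed in experiment 1 and had 63 reads in experiment 2. Blood genes summed to 7158 to 22240 CPM in experiment 1 and 4460 to 9759 CPM in experiment 2. Of 6 adrenal genes, Star, Cyp11b1 and Cyp11b2 had no count in either experiment, while the other 3 had 30 reads over the SAL libraries of experiment 2 (3.20 to 21.6 CPM) and 32 over its PRL libraries (4.60 to 23.0 CPM), and 1 of them had 1 read in experiment 1.

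No member passed a test across all genes. In edgeR's quasi-likelihood test, 0 of the 6 members tested in experiment 1 had a Benjamini-Hochberg adjusted p under 0.05 in SP12wk against LP, where 0.0197% of the 5086 genes tested were called, in SP28wk against SP12wk (0.138% called), in SP28wk against LP (0.216% called) or in LP with SP28wk against SP12wk (0.0393% called). Of the 8 tested in PRL against SAL, 0 were called, as were 0% of 10696 genes. At an unadjusted p under 0.05, 1 of 6 members passed in SP12wk against LP (7.26% of all genes did), 0 of 6 in SP28wk against SP12wk (6.10%), 0 of 6 in SP28wk against LP (8.57%), 0 of 6 in LP with SP28wk against SP12wk (6.78%) and 2 of 8 in PRL against SAL (4.88%). DESeq2 called 0 members in each comparison after adjustment, and 1, 0, 1, 1 and 1 without it. The edgeR shares are not the background of these counts. Without adjustment DESeq2 gave 130 of all 5086 genes in SP12wk against LP and 54 in SP28wk against SP12wk. Its counts over all genes in the other comparisons are not given here. In PRL against SAL DESeq2 gave no adjusted p for 6 of the 8. The first 4 comparisons share libraries. The single values follow by role, as descriptions of these libraries. In bulk tissue, fewer cells of a type and less RNA per cell cannot be told apart.

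**Figure D1:**
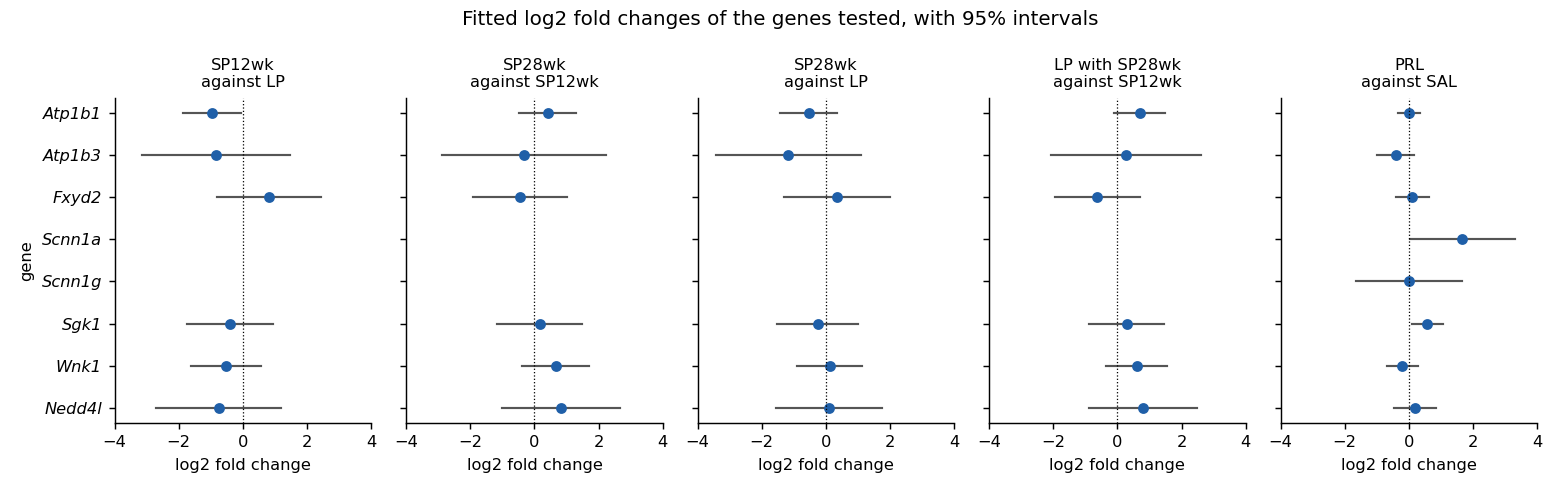
Fitted log2 fold changes (horizontal axes) with 95% intervals (lines) for the members tested (vertical axis) in 5 comparisons, 1 panel each. Intervals span several log2 units for the members with few reads in experiment 1, and in PRL against SAL those of Scnn1a and Sgk1 lie above 0 before adjustment for the number of genes.

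Atp1b1, the beta subunit found throughout the tubule, had the most reads of the members in both experiments, 661 in experiment 1. Its 4 LP libraries held 1552, 4655, 4994 and 2486 CPM. The SP12wk libraries held 1594, 1147, 1606 and 1441 CPM, and the SP28wk libraries 1937, 1452, 1600 and 1928 CPM. Libraries 2 and 3 of LP were far above all others, whereas LP library 1 lay inside the range of both short-day groups, so that LP overlapped with each of them.

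LP libraries averaged 3422 ± 1670 CPM of Atp1b1 (SD, n = 4), SP12wk libraries 1447 ± 214 CPM and SP28wk libraries 1729 ± 242 CPM. The fitted log2 fold change of SP12wk against LP was −0.96 (SE 0.46, 95% interval −1.86 to −0.07), with an edgeR adjusted p of 0.622. Leaving out the 2 LP libraries that stood apart, a choice made after the data were seen, brought it to −0.48. The means differed by −1975 CPM, with a two-sided exact permutation p of 0.0857, where 4 animals against 4 allow 0.0286 at the least. SP28wk against SP12wk gave 0.42 (SE 0.46) and SP28wk against LP −0.54 (SE 0.45) (edgeR adjusted p = 0.980 and 0.819), and the latter was −0.12 without those 2 libraries. For LP with SP28wk against SP12wk the fitted log2 fold change was 0.69 (SE 0.41, edgeR adjusted p = 0.741), and it was 0.42 without them.

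**Figure D2:**
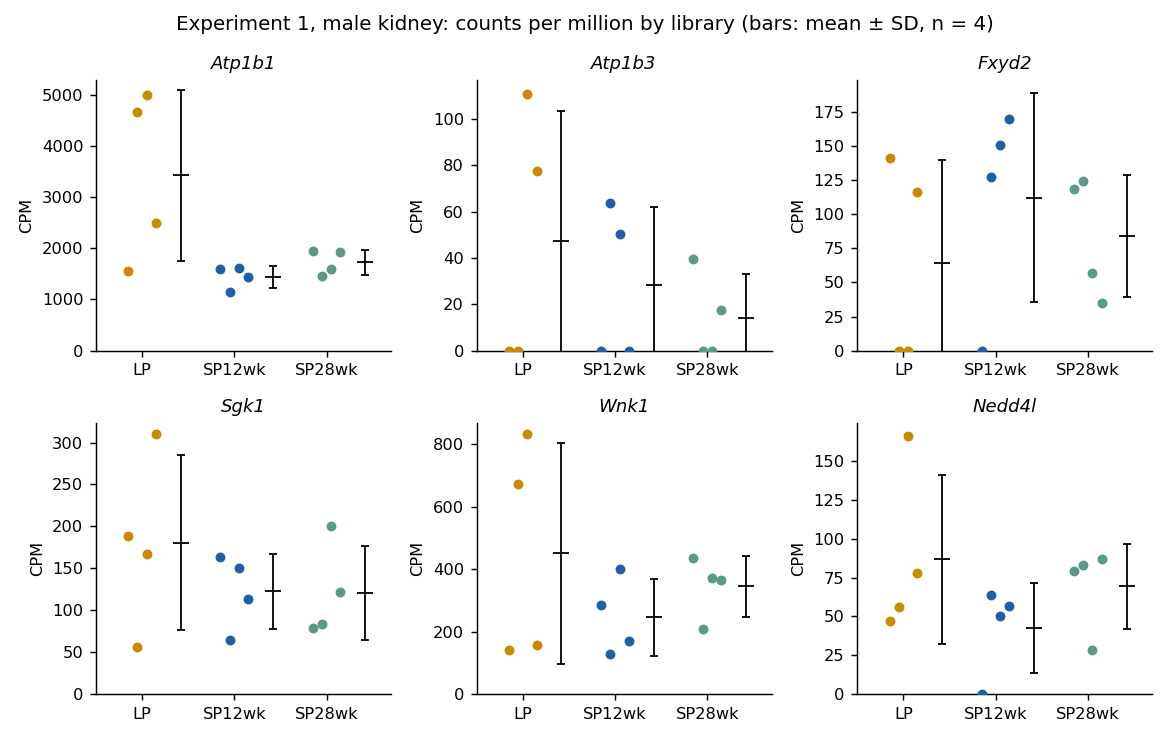
CPM (vertical axes) in the 12 libraries of experiment 1 for the 6 members tested, by group (points, in order of replicate number) with the mean and SD of each group (n = 4). The LP points of Atp1b1 and Wnk1 split into a high pair (libraries 2 and 3) and a low pair, and the groups overlap for every gene shown.

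Slc12a1, the sodium potassium chloride cotransporter of the thick ascending limb, had 10 reads in LP, 3 in library 2 and 7 in library 3, the same libraries in which Atp1b1 was highest. The 4 thick limb markers summed to 94.1, 168, 499 and 77.7 CPM over the LP libraries, to 0 to 301 CPM over those of SP12wk and to 28.6 to 139 CPM over those of SP28wk. The part of these cells in the level of Atp1b1 was not tested.

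In experiment 2 the beta subunit overlapped between the groups. Atp1b1 (3629 reads) was between 689 and 943 CPM in SAL with a median of 807 CPM, and between 661 and 1103 CPM in PRL with a median of 850 CPM. SAL averaged 803 ± 90.2 CPM (SD, n = 6), PRL averaged 854 ± 152 CPM, and the PRL libraries lay on both sides of the SAL libraries. The fitted log2 fold change was 0.01 (SE 0.18), with a 95% interval of −0.35 to 0.36 (edgeR adjusted p = 0.999).

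Atp1b3, a second beta subunit that is expressed widely at low levels, had 8 reads in experiment 1 and at most 2 in a library. It was counted in 2 of 4 libraries in each group, with highest values of 111 CPM (LP), 63.8 CPM (SP12wk) and 39.5 CPM (SP28wk). No difference was detectable at this depth, and the 95% interval of SP12wk against LP ran from −3.16 to 1.47 on the log2 scale. In experiment 2, with 166 reads, SAL held 27.0 to 86.8 CPM (median 40.3) and PRL 31.2 to 35.2 CPM (median 32.6). All 6 PRL libraries lay within the SAL range, and 1 SAL library, replicate 3 with 86.8 CPM, was well above the other 5. The log2 fold change of PRL against SAL was −0.41 (SE 0.29, 95% interval −0.99 to 0.17, edgeR adjusted p = 0.999).

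Fxyd2, the gamma subunit of the pump, had 27 reads in experiment 1. Libraries 1 to 4 held 3, 0, 0 and 3 of them under LP, then 0, 2, 3 and 6 under SP12wk, and 3, 3, 2 and 2 under SP28wk. The 2 LP libraries without a read of Fxyd2 were the same libraries 2 and 3 in which Atp1b1 was highest, where the limit of 3 counts is 168 and 166 CPM. LP averaged 64.4 ± 75.0 CPM (SD, n = 4), SP12wk 112 ± 76.6 CPM and SP28wk 83.7 ± 44.7 CPM. The log2 fold change of SP12wk against LP was 0.80 (SE 0.83, edgeR adjusted p = 0.835) and turned to −0.14 without those libraries. Among its 4 listed transcripts, some shared identical counts in all 12 libraries with transcripts of 6 other genes. The match was sought over all listed transcripts, including NR_028499.1 and NM_007503.4 with 5 and 4 reads. It need not concern the transcript with 27 reads. At so few reads it can arise by coincidence or by shared reads.

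In experiment 2 Fxyd2 had 1625 reads and varied more between animals of a group than Atp1b1. SAL libraries held 199 to 502 CPM (median 291) and PRL libraries 179 to 623 CPM (median 303). The highest and the 2 lowest values were in PRL, where library 2, the deepest, reached 623 CPM. The group means, 318 ± 110 CPM (SD, n = 6) for SAL against 341 ± 174 CPM for PRL, gave a log2 fold change of 0.11 (SE 0.26, 95% interval −0.41 to 0.64, edgeR adjusted p = 0.999), and −0.18 without PRL library 2. Relative to Atp1b1 in the same library, a ratio taken up after the values were seen like the other ratios given here, its count was 0.211 to 0.643 in SAL and 0.204 to 0.832 in PRL (exact permutation test, p = 0.857).

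Fxyd2 is listed with 4 transcripts that fall into 2 pairs of equal counts. NM_052823.3 and XM_030244032.1 carried 1625 reads each, and NM_007503.4 and NR_028499.1 carried 94 each. The count on NM_007503.4 was 5.51% to 8.18% of that on NM_052823.3 in SAL (mean 6.46%) and 2.33% to 7.69% in PRL (mean 4.93%), and the groups overlapped (exact permutation test, p = 0.121). The reads may be counted on more than 1 transcript, so that these shares are not shares of isoforms.

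Over the 12 libraries of experiment 2, the genes most like Atp1b1 by the Pearson correlation of log2 CPM, among 5634 genes with a count in every library, were Pkd2l2 (r = 0.923, 63 reads), Fam133b (0.907) and Snx14 (0.901). Those most like Fxyd2 were Mif (r = 0.934), Gstp1 (0.920) and Gstp2 (0.916), the last 2 being near-identical copies that may share reads. Atp1b1 and Fxyd2 themselves had r = −0.560, and Wnk1 had r = 0.735 with Atp1b1 and −0.720 with Fxyd2. These are descriptions over libraries that share a flow cell and differ in depth.

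**Figure D3:**
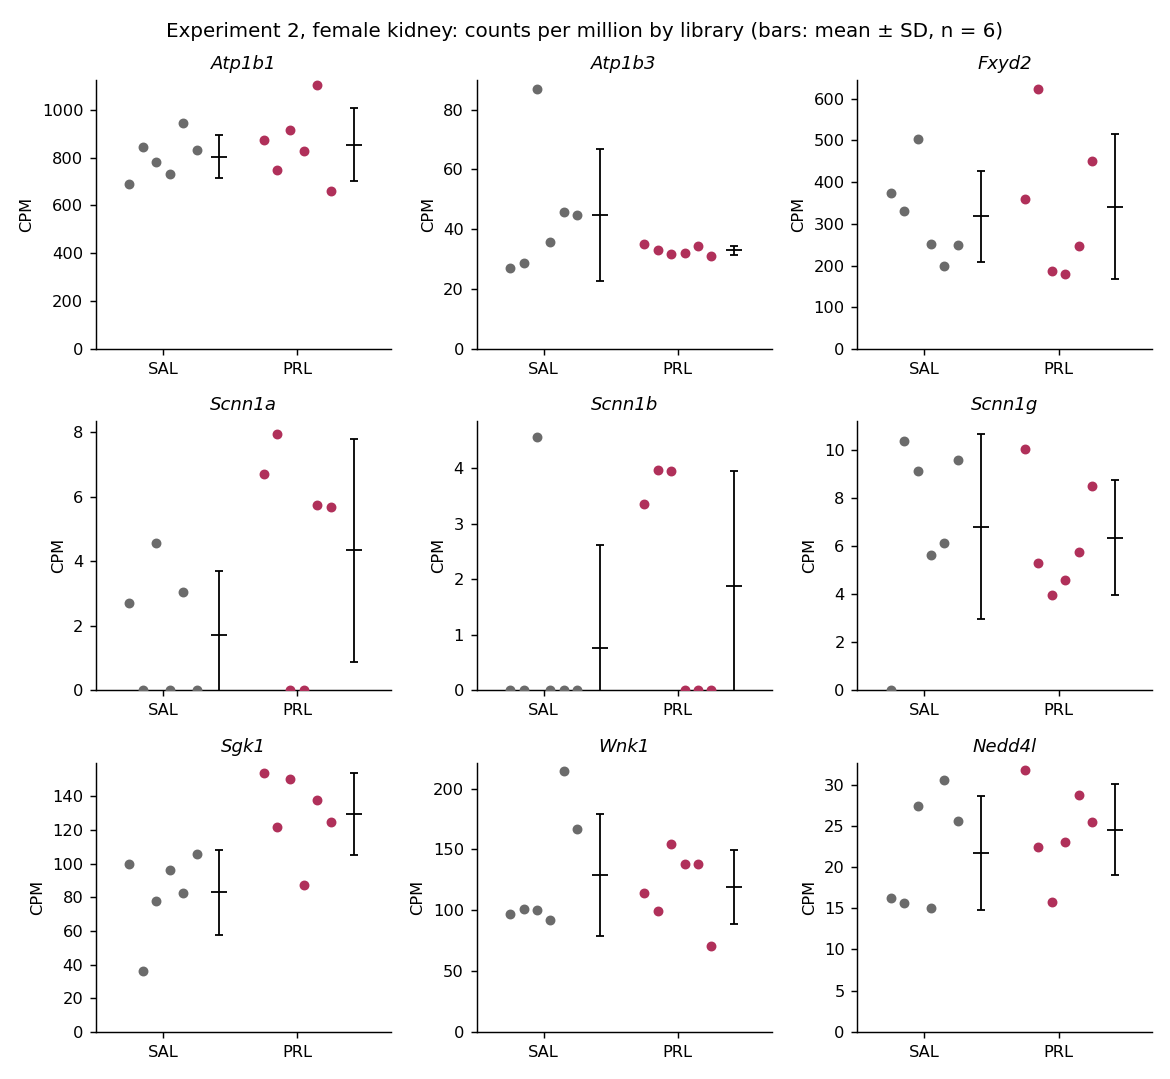
CPM (vertical axes) of the 9 members in the 12 libraries of experiment 2, by group (points, in order of replicate number) with the mean and SD of each group (n = 6). For Sgk1, 5 of the 6 PRL points lie above all SAL points, while the groups are mixed for Atp1b1, Fxyd2, Wnk1 and Nedd4l.

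Reads of the epithelial sodium channel were scarce. In experiment 1, 1 read of Scnn1g in SP12wk library 2 was the only one listed for the 3 subunits. The sums of counts in the groups were 82855 in LP, 95462 in SP12wk and 141994 in SP28wk. They allow a subunit without a read in the group up to 36.2, 31.4 and 21.1 CPM, by the limit of 3 counts over the group. For Scnn1g in SP12wk, with its 1 read, the exact Poisson interval was 0.265 to 58.4 CPM, for counting error alone. Channel expression could therefore not be compared across photoperiods. In experiment 2 the 3 subunits had 53 reads in all, 18 in SAL and 35 in PRL.

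Scnn1a, the pore-forming alpha subunit whose transcription corticosteroids raise, had 3 reads in SAL and 13 in PRL. The SAL libraries held 0, 0, 0, 2.70, 3.06 and 4.57 CPM. In PRL, 4 libraries held 5.67 to 7.93 CPM, above all SAL libraries, and the other 2 held no read. These 4 values came from 1 to 6 reads each. PRL library 5, the shallowest, reached 5.75 CPM on 1 read, and each SAL value above 0 was also 1 read. SAL averaged 1.72 ± 1.99 CPM (SD, n = 6) and PRL 4.34 ± 3.46 CPM. The fitted log2 fold change was 1.66 (SE 0.81, 95% interval 0.02 to 3.30, edgeR adjusted p = 0.999). The means differed by 2.62 CPM, and the exact permutation test did not separate the groups (p = 0.156). Pooled over the counts of a group, the exact Poisson intervals were 0.288 to 4.09 CPM for SAL and 2.95 to 9.46 CPM for PRL, which cover counting error only and leave out the spread between animals. Of the 13 reads, 10 were in PRL libraries 1 and 2, the deepest of the experiment. Without these 2 libraries the difference was 1.13 CPM (exact permutation test, p = 0.595).

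The beta subunit Scnn1b had 1 read in SAL and 6 in PRL, in 1 and 3 libraries, and was too low to be tested. The gamma subunit Scnn1g had 14 reads in SAL and 16 in PRL, between 0 and 10.4 CPM (median 7.63) and between 3.95 and 10.1 CPM (median 5.52). Its log2 fold change was 0.00, with a 95% interval of −1.64 to 1.64 (edgeR adjusted p = 1.000). Differences of Scnn1g within that interval were not detectable at this depth.

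Among the regulators, Sgk1 differed most clearly between PRL and SAL. Sgk1, a kinase that corticosteroids, osmotic stress and growth factors induce within hours, had 488 reads in experiment 2. SAL libraries held 36.4 to 106 CPM with a median of 89.3 CPM, and PRL libraries 87.4 to 154 CPM with a median of 131 CPM. In 5 of 6 PRL libraries Sgk1 was above every SAL library, and the exception was PRL library 4.

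SAL averaged 83.0 ± 25.2 CPM of Sgk1 (SD, n = 6), PRL averaged 129 ± 24.3 CPM, and the fitted fold was 1.49 (log2 fold change 0.57, SE 0.24, 95% interval 0.09 to 1.06). The means lay 46.3 CPM apart, and the exact permutation p, two-sided, was 0.00866, with 0.00216 the smallest possible. After adjustment over all genes tested the permutation p was 0.999 and the edgeR adjusted p was 0.891. Leaving out 1 library at a time, the log2 fold change of Sgk1 was between 0.39 and 0.64, the lowest value without SAL library 2, which held 36.4 CPM. Of the 6 listed transcripts of Sgk1, NM_011361.3 carried the most reads, and NM_001161848.2 carried 87.2% of its count in SAL and 88.6% in PRL (exact permutation test of the share, p = 0.738). Set against the count of Atp1b1 in the same library, Sgk1 was 0.106 ± 0.037 with vehicle, 0.154 ± 0.032 with prolactin (exact permutation test, p = 0.0411, and 0.185 adjusted over the 9 tests of ratios made).

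In experiment 1 Sgk1 had 46 reads. The LP libraries held 188, 56.1, 166 and 311 CPM, the SP12wk libraries 163, 63.8, 151 and 113 CPM, and the SP28wk libraries 79.1, 83.0, 200 and 122 CPM. The groups overlapped throughout. The log2 fold changes were −0.41 (SE 0.68) for SP12wk against LP, 0.16 (SE 0.67) for SP28wk against SP12wk and −0.25 (SE 0.64) for SP28wk against LP. Each 95% interval was wide enough to hold the difference seen between PRL and SAL, −1.75 to 0.93 for the first.

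Nedd4l, the ligase that SGK1 restrains, had 21 reads in experiment 1 on a gene with 41 listed transcripts. LP libraries held 47.0, 55.8, 166 and 77.7 CPM, SP12wk libraries 0, 63.8, 50.2 and 56.5 CPM, and SP28wk libraries 79.1, 83.0, 28.6 and 86.8 CPM. In SP28wk, 3 of the 4 libraries were above all SP12wk libraries, each with 2 to 5 reads. The log2 fold change of SP28wk against SP12wk was 0.84 (SE 0.94, edgeR adjusted p = 0.980). In experiment 2 Nedd4l had 103 reads, 15.1 to 30.6 CPM in SAL (median 20.9) and 15.8 to 31.8 CPM in PRL (median 24.3). The ranges nearly coincided, with a log2 fold change of 0.20 (SE 0.32, 95% interval −0.45 to 0.86, edgeR adjusted p = 0.999). The ratio of Sgk1 to Nedd4l counts was 4.09 ± 1.80 with vehicle, 5.54 ± 2.01 with prolactin (exact permutation test, p = 0.227).

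Wnk1 had 107 reads in experiment 1, with the same counts on all of its 35 listed transcripts. The LP libraries held 141, 673, 832 and 155 CPM and split like Atp1b1, with libraries 2 and 3 high. The SP12wk libraries held 286, 128, 402 and 170 CPM, and the SP28wk libraries 435, 207, 371 and 365 CPM. The log2 fold change of SP12wk against LP was −0.54 (SE 0.56), and it was 0.69 without the 2 LP libraries. SP28wk against SP12wk, which does not use LP in the contrast, gave 0.66 (SE 0.54, edgeR adjusted p = 0.980).

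In experiment 2 Wnk1 had 529 reads, 92.2 to 214 CPM in SAL (median 101) and 70.9 to 154 CPM in PRL (median 126). The mean of SAL was above that of PRL while its median was below, since SAL library 5 alone reached 214 CPM. The log2 fold change was −0.20 (SE 0.24, 95% interval −0.69 to 0.28, edgeR adjusted p = 0.999). The kidney-specific short form of WNK1, which lacks kinase activity, was not separated from the long form in these counts. Which of the 35 listed transcripts stand for either form was not examined. Of the 35, 28 agreed within 2 counts in every library of experiment 2.

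The other genes of these pathways were taken from 5 lists with 53 genes. In experiment 1, 40 were listed and 24 tested, and in experiment 2, 51 were listed and 43 tested. In edgeR 0 of them had an adjusted p under 0.05 in any comparison. In PRL against SAL, 2 of 43 passed at an unadjusted p under 0.05 (4.88% of all genes did), both higher in PRL. The median log2 fold change of the 43 was 0.10 against 0.03 over all genes tested. In SP12wk against LP, 3 of 24 passed without adjustment (7.26% of all genes did), all lower in SP12wk, with a median of −0.49 against 0.00 over all genes.

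The list of mineralocorticoid signalling and ENaC regulators held 15 genes, all tested in experiment 2. There 11 had a log2 fold change above 0, with a median of 0.13 against 0.03 over all genes tested. Without adjustment 1 of the 15 passed, where 4.88% of all genes did. This was Tsc22d3, which encodes the glucocorticoid-induced leucine zipper GILZ, another inducer of ENaC activity. SAL libraries held 35.2 to 101 CPM of it (74.6 ± 26.2, SD, n = 6), PRL libraries 70.9 to 201 CPM (119 ± 47.7), with a log2 fold change of 0.59 (SE 0.25, edgeR adjusted p = 0.939; exact permutation test, p = 0.0628). Per1, a clock gene that glucocorticoids also induce, was chosen once its values were known. It ranged from 0 to 10.8 CPM under SAL, from 5.75 to 17.0 CPM under PRL, on 11 and 27 reads. The fit did not separate the groups (log2 fold change 1.07, SE 0.56, 95% interval −0.06 to 2.19, edgeR adjusted p = 0.999; exact permutation test, p = 0.0476). By the exact permutation test, 486 of the 10696 genes tested had an unadjusted p under 0.05, and 0 had an adjusted p under 0.05. Of the receptors, Nr3c1, which encodes the glucocorticoid receptor, averaged 33.9 ± 11.5 CPM for SAL, 24.2 ± 1.94 CPM for PRL (log2 fold change −0.54, SE 0.30), and Nr3c2, which encodes the mineralocorticoid receptor, had a log2 fold change of −0.17 (SE 0.38). Prss8, the ENaC-cleaving protease prostasin and the gene with most reads of the list, had a log2 fold change of 0.20 (SE 0.26). Other genes of the list lay on both sides of 0. St14 had 0.93 (SE 0.59), Usp2 0.26 (SE 0.32), Pdpk1 0.12 (SE 0.35), Nedd4 −0.02 (SE 0.27) and Sgk3 −0.07 (SE 0.25). The 6 markers of collecting duct principal cells, the cells that carry ENaC, summed to 222 ± 45.4 CPM for SAL, to 298 ± 97.2 CPM for PRL (exact permutation test, p = 0.108). All 6 had counts, and the summed levels ranged from 151 to 275 CPM in SAL libraries, from 175 to 403 CPM in PRL libraries. All 6 had a log2 fold change above 0, with a median of 0.48 against 0.03 over all genes tested. Without adjustment 1 of them passed, where 4.88% of all genes did. Of the 6, Fxyd4 and Hsd11b2 are also on the pathway lists, and Fxyd4 alone averaged 105 CPM for SAL, 153 CPM for PRL. The part of principal cells in the values of Sgk1, Tsc22d3 and Scnn1a was not tested.

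**Figure D4:**
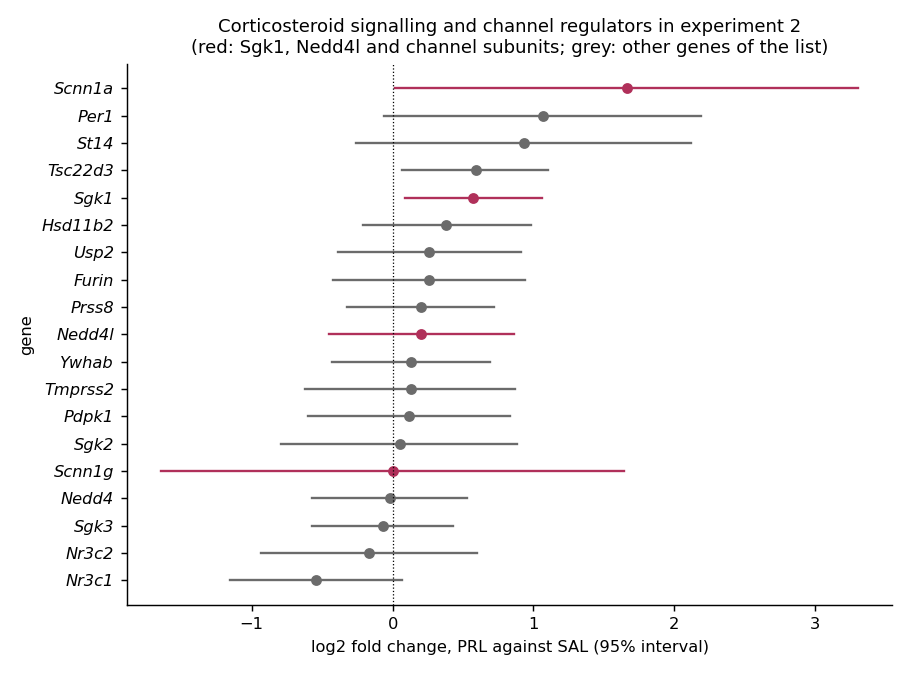
Fitted log2 fold changes of PRL against SAL (horizontal axis) with 95% intervals (lines) for Sgk1, Nedd4l, Scnn1a and Scnn1g (red) and the 15 genes of the list of mineralocorticoid signalling and ENaC regulators (grey), sorted by size. Sgk1 (0.57), Tsc22d3 (0.59) and Scnn1a (1.66) have intervals above 0, and none of the genes shown passed after adjustment.

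Of the other pump subunits and FXYD proteins, 5 of 12 genes were tested in experiment 2 and 0 passed even without adjustment. In experiment 1, 2 were tested and 0 passed after adjustment. Without it, 2 of 2 passed in SP12wk against LP, lower in SP12wk (7.26% of all genes did). In SP28wk against SP12wk 1 of 2 passed, higher in SP28wk (6.10%), and in SP28wk against LP 1 of 2, lower in SP28wk (8.57%). LP with SP28wk against SP12wk gave 1 of 2, lower in SP12wk (6.78%). Fxyd4, a regulator of the pump in the collecting duct chosen once its values were known, ranged from 54.6 to 186 CPM under SAL, from 40.2 to 265 CPM under PRL (log2 fold change 0.53, SE 0.29). In experiment 1 the LP group held 8 reads of Fxyd4, the SP12wk group 1 and the SP28wk group 13, and SP28wk against SP12wk gave a log2 fold change of 2.83 (SE 1.14, edgeR adjusted p = 0.614; exact permutation test, p = 0.143). The beta isoforms Atp1b2 and Atp1b4 had 1 read each in experiment 2.

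In the list of WNK-SPAK genes and their cotransporters, 11 of 13 were tested in experiment 2 and 0 passed without adjustment. Slc12a1, the gene of the list with most reads (372), averaged 71.4 ± 23.5 CPM for SAL, 95.9 ± 45.9 CPM for PRL (log2 fold change 0.36, SE 0.26). Slc12a3, the thiazide-sensitive cotransporter that WNK1 signalling activates, had a log2 fold change of 0.10 (SE 0.31). In experiment 1, 7 were tested, and Cul3 had most reads, 29.

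Of 8 other sodium transporters all were tested in experiment 2. Slc9a3, the apical sodium-proton exchanger NHE3 of the proximal tubule, passed without adjustment, at 0 to 18.9 CPM under SAL, 11.5 to 36.8 CPM under PRL on 22 and 46 reads (log2 fold change 0.89, SE 0.44, edgeR adjusted p = 0.999; exact permutation test, p = 0.0628). Slc4a4, the basolateral bicarbonate cotransporter NBCe1 and the gene with most reads of the list, averaged 251 ± 34.9 CPM for SAL, 211 ± 47.2 CPM for PRL (log2 fold change −0.35, SE 0.20). Of 5 potassium channels of the distal nephron 4 were tested in experiment 2 and 0 passed, Kcnj15 with most reads having a log2 fold change of 0.23 (SE 0.31).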

How the data were processed

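Kidney RNA of 24 hamsters was measured. The authors used Guppy for basecalling and demultiplexing, Porechop for adapters and Filtlong for read quality, and mapped what remained to the mouse genome with Minimap2. The submitters' processing notes name minimap2 and Salmon without a role. The authors deposited estimated counts per mouse RefSeq transcript, without normalization. Hamster reads thus carry the names of mouse genes, and a gene that diverged may lose reads. The methods name a direct cDNA kit, the sample labels a PCR-cDNA kit with the same catalogue numbers.

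The transcript with the highest total was taken for each gene, and its rounded counts were fitted by edgeR 4.0.16 under R 4.3.3 (quasi-likelihood, TMM). Genes entered with reads in 4 or more of the 12 libraries of experiment 1, or 6 or more of the 12 of experiment 2. A Benjamini-Hochberg adjusted p of 0.05 was the threshold. Mean CPM was compared by two-sided exact permutation tests. Members and lists were chosen with earlier results of these data known. Every member was named, and from each list the genes that passed, in experiment 2 also at an unadjusted p under 0.05. The gene with most reads in experiment 2 was named for each list except that of other pump subunits and FXYD proteins. Further genes, among them Nr3c1, Nr3c2, Per1, Slc12a3 and Fxyd4, were named outside this rule. With 1 animal per library, p-values cover the spread between these animals. No pair of libraries of a group agreed within sampling noise. The tests were tested on simulated data. All columns of both tables were used. Alternatives were other filters, scaling and tools, sums over transcripts, a replicate block and left-out libraries. No sequences or transcript lengths were used, so levels were not compared between genes. Some genes of the lists, and ratios to them, are not reported here.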

Additional observations from a re-analysis of the deposited data

Results flagged for a closer look

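Among 34 groups of 4 or 6 libraries, 2 held a library far from the rest of its group by Dixon's test, which chance alone gives in about 1 of 20 groups. Nedd4l in SP28wk library 3 was at 28.57 CPM, from 1 read, while the nearest of the other 3 libraries was at 79.05 CPM. The gap was 0.866 of the range, above the critical value for 4 samples. Atp1b3 in SAL library 3 was at 86.77 CPM, from 19 reads, while the nearest of the other 5 was at 45.90 CPM, and the gap was 0.684 of the range, above the critical value for 6 samples.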

How the results depend on the processing

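With few reads in experiment 1, a count of 0 and a low level could not be told apart, and levels were not compared between genes. Members called numbered 0 in all comparisons under every alternative tried. The number of all genes called moved more. SP12wk against LP called 1 gene, and 0 without a filter, with a stricter filter, by DESeq2, with counts summed over transcripts or with the replicate block, 2 without LP libraries 2 and 3 (left out together after the data were seen), and 0 to 9 with 1 library left out. SP28wk against SP12wk called 7, and 2 with the stricter filter, 2 by DESeq2, 0 with sums, 18 without the 2 LP libraries, and 2 to 11 with 1 library left out. SP28wk against LP called 11, and 5 with the stricter filter, 2 by DESeq2, 0 with sums, 2 without the 2 LP libraries, and 8 to 56 with 1 library left out. LP with SP28wk against SP12wk called 2, and 0 without a filter, with the stricter filter, by DESeq2 or with sums, 7 without the 2 LP libraries, and 0 to 2 with 1 library left out. PRL against SAL called 0 (522 at an unadjusted p under 0.05), and 92 without a filter, 1 with sums, 52 with the replicate block, 1 without PRL libraries 1 and 2 (left out together after the data were seen), and 0 to 44 with 1 library left out. The cause was not tested.

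Replicate numbers did not pair the libraries: the correlations of deviations were −0.182 to 0.223 in experiment 1 and −0.233 to 0.265 in experiment 2, and 5 of 24 and 2 of 12 matches were best with the own number. The replicate block turned Fxyd2 in PRL against SAL to −0.02.

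Signs turned for some members, none of them called. Without the 2 LP libraries, in SP12wk against LP, Fxyd2 was −0.14 on the log2 scale and −16.91 CPM, and Wnk1 0.69 and 97.94 CPM. In SP28wk against LP, Fxyd2 was then −0.67 and −45.09 CPM, Wnk1 196.3 CPM and Nedd4l 6.994 CPM. In LP with SP28wk against SP12wk, Wnk1 was then −0.04 and Atp1b3 −6.056 CPM. Without the 2 PRL libraries, in PRL against SAL, Atp1b1 was −0.01, and Fxyd2 −0.27 and −51.94 CPM. In SP28wk against SP12wk, Sgk1 was 0.00 with RLE size factors, −0.01 by DESeq2, 24.50 CPM with sums and 12.46 CPM with TMM-scaled library sizes. In SP28wk against LP, Wnk1 was −0.05 with the stricter filter, −0.13 with RLE, −0.15 by DESeq2, 0.00 with sums and 28.39 CPM with TMM-scaled sizes, and Nedd4l was −0.06, −0.13 and −0.15 under the first 3 of these, 76.54 CPM with sums and 3.933 CPM with TMM-scaled sizes. Atp1b3 in LP with SP28wk against SP12wk was −0.08 with sums. In PRL against SAL, Atp1b1 was −0.01 without a filter, 0.00 with the stricter filter and −0.01 with sums, and Nedd4l was −0.08 and −5.189 CPM with sums.

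With 1 library left out in turn, signs also turned, with these ranges (log2 fold changes unless CPM is given). In PRL against SAL they were Atp1b1 −0.06 to 0.04, Fxyd2 −33.42 to 59.89 CPM, Fxyd2 −0.18 to 0.23, Scnn1g −1.824 to 0.2568 CPM, Scnn1g −0.27 to 0.16 and Wnk1 −16.99 to 7.422 CPM. In LP with SP28wk against SP12wk they were Atp1b3 −9.260 to 13.96 CPM and Atp1b3 −0.23 to 0.79. In SP12wk against LP they were Atp1b3 −34.40 to 2.590 CPM and Sgk1 −0.74 to 0.12. In SP28wk against SP12wk they were Atp1b3 −0.83 to 0.19, Fxyd2 −0.90 to 0.03, Sgk1 −28.19 to 12.12 CPM and Sgk1 −0.18 to 0.33. In SP28wk against LP they were Fxyd2 −2.154 to 44.88 CPM, Fxyd2 −0.11 to 0.92, Nedd4l −30.63 to 9.180 CPM, Nedd4l −0.21 to 0.42, Sgk1 −0.61 to 0.28, Wnk1 −209.0 to 21.39 CPM and Wnk1 −0.14 to 0.52. For Sgk1 in PRL against SAL the exact permutation p was 0.00216 to 0.0381 over 15 alternatives. Its log2 fold change stayed above 0 over 19 alternatives of the fitted model, where the unadjusted p was 0.00986 to 0.110 and under 0.05 in 15. For Scnn1a the unadjusted p was 0.0275 to 0.181 over 17 and under 0.05 in 6, and with the stricter filter or without the 2 PRL libraries it had reads in too few libraries for the fit.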
